A study of Mus musculus with 4 samples.

Results

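The proton-coupled peptide transporters of the SLC15 family were followed through mouse intestinal organoids in which Tacc3 was wild type or floxed. The members were the 4 genes Slc15a1, Slc15a2, Slc15a3 and Slc15a4, taken by their platform gene symbol from 18193 genes on the array, with every probe set of each: 7 probe sets in all, 1 for Slc15a1, 3 for Slc15a2, 1 for Slc15a3 and 2 for Slc15a4. The family was chosen by the genotype difference of Slc15a2 in these same arrays, so the values below describe the arrays and are not a test. Organoids are 3-dimensional epithelial cultures grown in Matrigel. The groups were Tacc3 wt/wt at day 4, Tacc3 fl/fl at day 4, Tacc3 wt/wt at day 6 and Tacc3 fl/fl at day 6, with 1 array each. All 4 cultures had received 4OHT (4-hydroxytamoxifen) for 24 hours, which was meant to recombine Apc and Tacc3. In the sample descriptions day 4 stands for normal and day 6 for Apc-deficient organoids, but the design text has both genes recombined before either day, so the Apc state of an array is not settled. The labels give neither the Cre driver nor the mouse strain, age or number of animals, and they do not name the intestinal segment.

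SLC15 proteins carry short peptides across membranes together with protons, so that uptake runs on the acid microclimate that sodium/proton exchange maintains at the brush border. Slc15a1 (PEPT1) is the low-affinity, high-capacity transporter through which small intestinal enterocytes absorb di- and tripeptides from digested protein. Slc15a2 (PEPT2) is the high-affinity form known best from kidney tubule, choroid plexus and glia, where it recovers peptides. Slc15a3 and Slc15a4 (PHT2 and PHT1) sit in endolysosomes, carry histidine as well as peptides, and serve signalling by nucleic acid and muramyl peptide sensors in immune cells.

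The upstream sequence is shown for the 3 members with a probe set that exceeded the median of all probe sets (an intensity of 16.9) on any array, Slc15a2, Slc15a1 and Slc15a4. No upstream sequence was available for Slc15a3. Each window holds the 250 bases before 1 annotated transcript start, from the RefSeq promoter table, read 5′ to 3′ on the gene's own strand, which is the minus strand for all 3 (GRCm38.p6). Slc15a2 lies at chr16:36784963-36785212, Slc15a1 at chr14:121505255-121505504 and Slc15a4 at chr5:127617393-127617642. The start used is the 5′ end of the whole annotated gene for Slc15a1, but lies 196 bases inside the annotated extent of Slc15a2 and 15900 bases inside that of Slc15a4, so these 2 windows precede an internal start. Capitals mark matches to any of the 6 motifs searched on both strands.
Slc15a2: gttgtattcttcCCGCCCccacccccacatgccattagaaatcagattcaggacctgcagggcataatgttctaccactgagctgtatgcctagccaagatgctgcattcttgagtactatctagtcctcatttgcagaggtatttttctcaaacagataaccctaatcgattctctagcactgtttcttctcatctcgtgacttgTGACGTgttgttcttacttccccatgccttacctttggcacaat
Slc15a1: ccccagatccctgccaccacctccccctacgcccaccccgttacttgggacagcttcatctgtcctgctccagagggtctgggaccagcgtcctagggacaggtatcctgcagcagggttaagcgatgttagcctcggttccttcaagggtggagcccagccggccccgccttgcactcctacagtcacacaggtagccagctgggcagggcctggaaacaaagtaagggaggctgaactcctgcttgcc
Slc15a4: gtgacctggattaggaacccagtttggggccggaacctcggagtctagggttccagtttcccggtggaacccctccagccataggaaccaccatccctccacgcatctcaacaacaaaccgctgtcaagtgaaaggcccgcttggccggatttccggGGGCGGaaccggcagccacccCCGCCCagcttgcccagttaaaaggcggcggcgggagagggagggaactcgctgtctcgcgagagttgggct

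The motifs were the Sp1 GC box GGGCGG, the TATA box TATAAA, a CDX core TTTATG, a TCF/LEF core CTTTGA, the cyclic AMP response core TGACGT and the CLEAR core TCACGTGA of lysosomal genes. The Slc15a2 window held 1 GC box match on the opposite strand, beginning 238 bases before the start, and 1 cyclic AMP response core on the gene's strand, beginning 44 bases before it. The latter was present in 6.47% of all 32851 windows of the same length and the GC box in 32.7%. The Slc15a4 window held 2 GC boxes, beginning 93 and 72 bases before the internal start of its window, and the Slc15a1 window held none of the 6 motifs. The 3 windows also differed in base composition, with 45.2% G and C for Slc15a2 against 62.0% for Slc15a1 and 62.8% for Slc15a4, around a median of 52.4% over all windows. These are matches of letters in short windows and not measured binding.

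Before the members, the arrays themselves were examined. Median intensities lay between 15.4 and 17.7, and no level has a replicate error. For Actb the 5' probe set read 0.0610 and 0.0627 of the 3' one in wt/wt and fl/fl cultures at day 4. The ratios were 0.180 and 0.261 at day 6, so this ratio moved with the day. For Gapdh it was 0.208 and 0.142 at day 4 and 0.411 and 0.524 at day 6, which also differed between genotypes within each day. Tacc3 was lower in fl/fl cultures, at 32.5% of the wt/wt intensity at day 4 and 29.8% at day 6 by its brightest probe set. Its dimmer probe sets showed smaller gaps, at 48.9% and 50.7% for 1455834_x_at and 80.4% and 87.2% for 1436872_at. The brightest Apc probe set, 1420956_at, was higher in fl/fl cultures by 0.66 and 0.27 on the log2 scale, while 1420957_at differed by -0.11 and 0.20. Between the days the Apc probe sets disagreed. In wt/wt and fl/fl cultures, 1420956_at was higher at day 6 by 1.65 and 1.25 and 1435543_at by 1.31 and 0.89. Probe set 1420957_at differed by -1.41 and -1.10, and the dimmest, 1450056_at, by 0.18 and 0.35. What these values say of the Apc state was not tested. All 10 epithelial markers examined were above the filter, a mean over the 4 arrays of at least the median of all probe sets (16.9), and their summed intensity ran from 18110 to 31453. Of 11 small intestinal markers with a probe set 9 were above it, against 2 of 7 colonic ones (Slc26a3 and Muc4), with Car1, Hoxb13, Aqp8, Hoxd10 and Hoxd13 below.

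Slc15a2 was brighter in fl/fl than in wt/wt cultures on both days, by 1 of its 3 probe sets. Probe set 1417600_at, which the platform ties to the RefSeq mRNA, read 63.1 in wt/wt against 176 in fl/fl cultures at day 4, and 32.9 in wt/wt against 253 in fl/fl cultures at day 6. Both fl/fl arrays thus lay above both wt/wt arrays. The fl/fl intensity was 2.80-fold the wt/wt intensity at day 4 and 7.70-fold at day 6. On the scale used for all genes, log2(intensity + 16), which shrinks the differences of dim genes, the values were 1.28 and 2.46. In bulk RNA, a larger share of cells that make the transcript and more transcript per cell cannot be told apart.

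**Figure D1:**
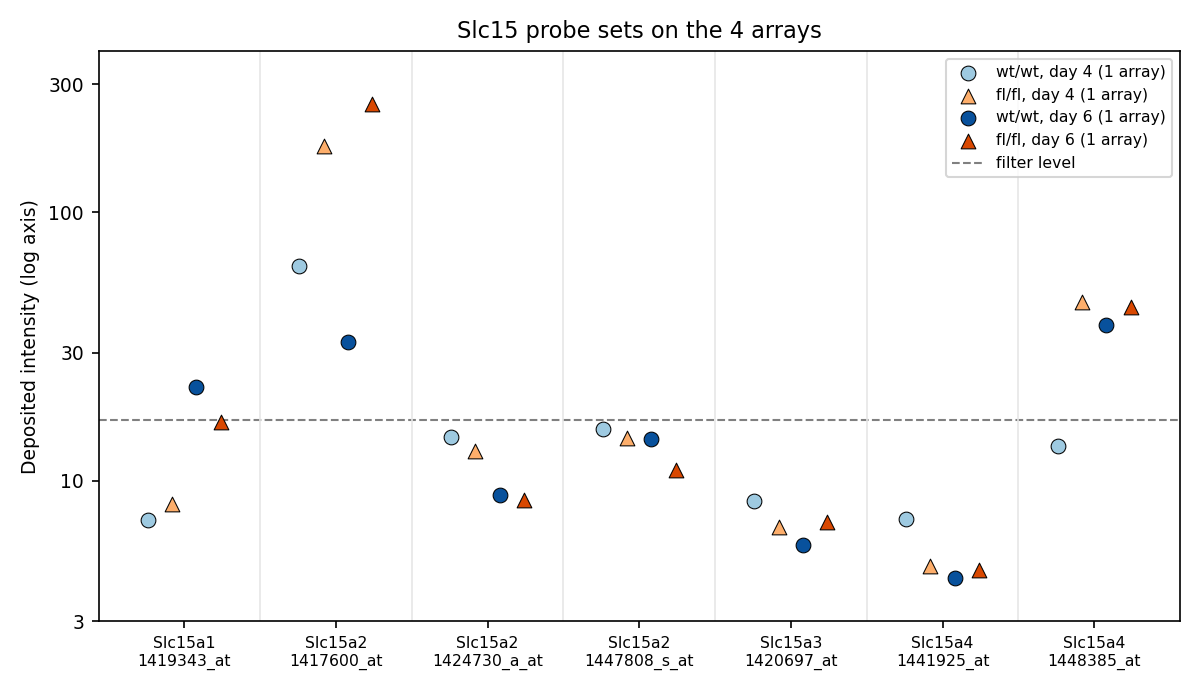
Deposited intensity (log axis) of the 7 Slc15 probe sets on the 4 arrays, with circles for wt/wt, triangles for fl/fl, pale for day 4, dark for day 6, and a dashed line at the filter level of 16.9. Slc15a2 1417600_at reads 176 and 253 in fl/fl against 63.1 and 32.9 in wt/wt cultures, and Slc15a4 1448385_at is low on 1 array, wt/wt at day 4 (13.5).

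The gap widened from day 4 to day 6 through both genotypes. In wt/wt cultures the 1417600_at intensity at day 6 was 0.521 of that at day 4, a log2 difference of -0.70, while in fl/fl cultures it was 1.43-fold that at day 4, a log2 difference of 0.48. The genotype difference was therefore 1.18 larger at day 6 than at day 4, and 4.75% of the 11392 genes above the filter had a difference of genotype differences of at least 1 in either direction. Neither day difference reached 2-fold. The direction between the days depended on scale in wt/wt cultures: scaled to the bacterial hybridization controls, which were brighter at day 4, the difference became 0.10, and centred on the genes above the filter it became -1.08.

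The rule that picked the family makes Slc15a2 stand out in these comparisons, and its place is given as a description. At day 6 its difference was the highest of the 11392 genes, and at day 4 it ranked 32 from the top. Genes at least 2-fold higher in fl/fl cultures made up 1.38% of those above the filter at day 4, 0.211% at day 6 and 0.00878% on both days, the last being Slc15a2 alone. Of the 4 transporter genes, 2 were 2-fold higher at day 4 (Slc15a2 and Slc15a4) and 1 at day 6 (Slc15a2). Slc15a4, at 1.08, was the member just inside the 2-fold line at day 4, and the nearest outside it was Slc15a1 at 0.06. Slc15a1 and Slc15a3 were below the filter on average, so only the other 2 members could be counted.

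**Figure D2:**
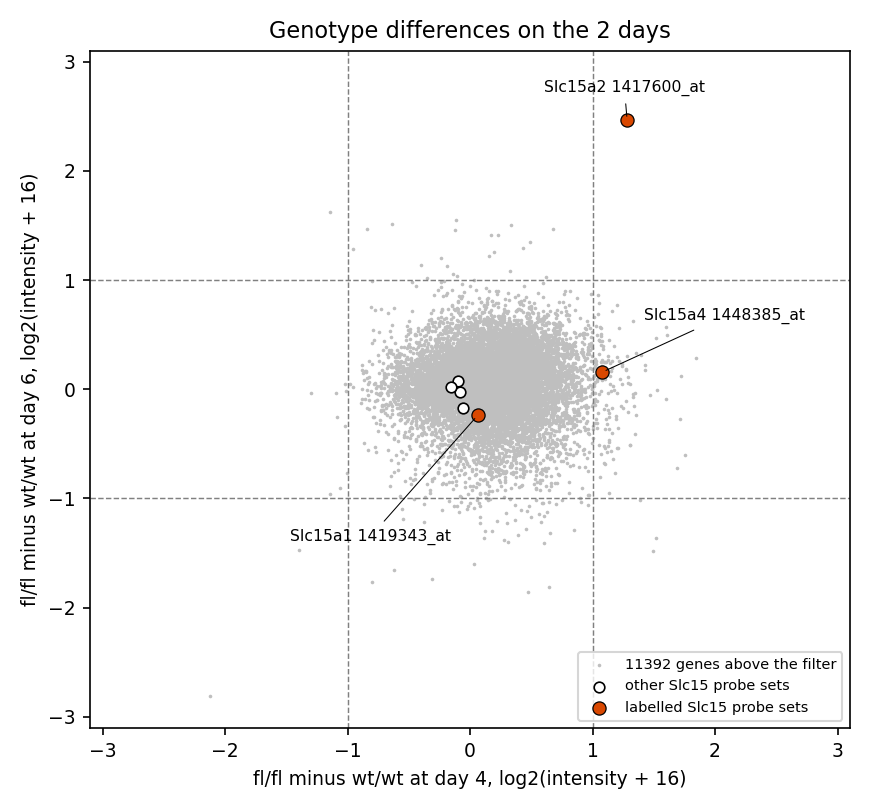
Each grey point is 1 of 11392 genes, placed by its fl/fl minus wt/wt difference at day 4 (horizontal) and day 6 (vertical) on the log2(intensity + 16) scale, with dashed lines at 2-fold and the 7 Slc15 probe sets drawn over them. Slc15a2 1417600_at lies alone at the upper right (1.28, 2.46), Slc15a4 1448385_at is past 2-fold at day 4 alone (1.08, 0.16), and the other Slc15 probe sets lie near the centre.

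The other 2 Slc15a2 probe sets did not share this pattern. Probe set 1424730_a_at read 14.6 in wt/wt against 12.9 in fl/fl cultures at day 4, and 8.87 and 8.51 at day 6. Probe set 1447808_s_at read 15.6 and 14.4 at day 4, and 14.3 and 10.9 at day 6. On each of them the fl/fl array was the dimmer of the pair on both days.

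These 8 values all lay below 16.9, where an array reading is hard to separate from nonspecific signal, so the probe sets give no level of their own. The log2 differences were -0.08 and -0.02 for 1424730_a_at and -0.06 and -0.17 for 1447808_s_at. Among 15720 named probe sets below the filter, the middle 90% of genotype differences ran from -0.35 to 0.19 at day 4 and from -0.15 to 0.17 at day 6. Of the 4 values, only the -0.17 of 1447808_s_at at day 6 fell outside that range.

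The platform gives each of the 3 probe sets a different source sequence, and the suffixes mark kinds of design: _a_at for alternative transcripts of a gene and _s_at for probes shared by several transcripts. Where the probes lie on the Slc15a2 transcripts is not given in the sources used here, and whether they read different isoforms was not tested. Averaged over the 3 probe sets, the differences were 0.38 at day 4 and 0.76 at day 6, short of 2-fold.

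Slc15a2 was not the only gene whose other probe sets were dim or differed in the opposite direction. Among 55 genes that differed 2-fold at day 6 and had several probe sets, all other probe sets lay below the filter for 10 (18.2%), and all differed in the opposite direction for 6 (10.9%). Another probe set was 2-fold in the same direction for 15. At day 4 the same counts were 27, 26 and 7 of 102 genes. Slc15a2 belonged to both of the former classes on both days, and how many genes did so was not counted.

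Slc15a1, the absorptive transporter of the small intestine, was dim on every array, with its readings ordered by day rather than by genotype. Its single probe set, 1419343_at, read 7.19 in wt/wt against 8.19 in fl/fl cultures at day 4, and 22.5 in wt/wt against 16.6 in fl/fl cultures at day 6. Both day 6 arrays lay above both day 4 arrays, and the wt/wt array at day 6 was the only one over the filter level. Because 3 of the 4 readings lay below that level, no intensity ratio is given. On the log2(intensity + 16) scale the day 6 minus day 4 difference was 0.73 for the wt/wt cultures and 0.43 for the fl/fl ones, short of 2-fold.

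Between genotypes Slc15a1 differed by 0.06 at day 4 and -0.24 at day 6. The day 6 difference was opposite in sign to that of Slc15a2, at 2.46, on the same pair of arrays. It lay inside the middle 90% of differences of the genes above the filter, which ran from -0.52 to 0.52, and outside that of the dim probe sets (-0.15 to 0.17). The day difference in wt/wt cultures rested on the treatment of dim values, at 1.52 with a pseudocount of 1, 0.28 with 64 and 1.13 when scaled to hybridization controls.

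The level of Slc15a1 set against its surroundings is a comparison of changes only, since intensities of different probe sets do not share a scale. Some brush border peptidases release the di- and tripeptides that Slc15a1 takes up. Of the 10 listed with a probe set, 9 were above the filter, and 6 of these were 2-fold higher at day 6 in both genotypes. The share of all genes so called was 9.37%, and the median of the 9 was 2.37 in wt/wt against 2.54 in fl/fl cultures, against 0.17 and 0.00 over all genes. The aminopeptidase Enpep read 37.8 and 28.5 at day 4 in wt/wt and fl/fl cultures and 1154 and 1182 at day 6. The meprin subunits Mep1b and Mep1a were higher at day 6 by 3.49 and 2.63 in wt/wt and by 3.29 and 2.78 in fl/fl cultures, and the dipeptidyl peptidase Dpp4 by 3.23 and 2.54.

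Neither of the members above the filter, Slc15a2 and Slc15a4, was 2-fold different between the days in either genotype on the log2(intensity + 16) scale. Other settings took single values past that line: Slc15a4 in wt/wt cultures, at 0.88, became 1.43 with a pseudocount of 1 and 1.41 when scaled to hybridization controls. Of all genes, 18.3% were 2-fold higher and 2.97% lower at day 6 in wt/wt cultures, and 12.2% and 2.9% in fl/fl cultures. The arrays of the 2 days are also those that differ in the 5' to 3' ratios, and the Gapdh ratio differed between genotypes as well. The part of RNA quality in any day or genotype difference was not tested.

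**Figure D3:**
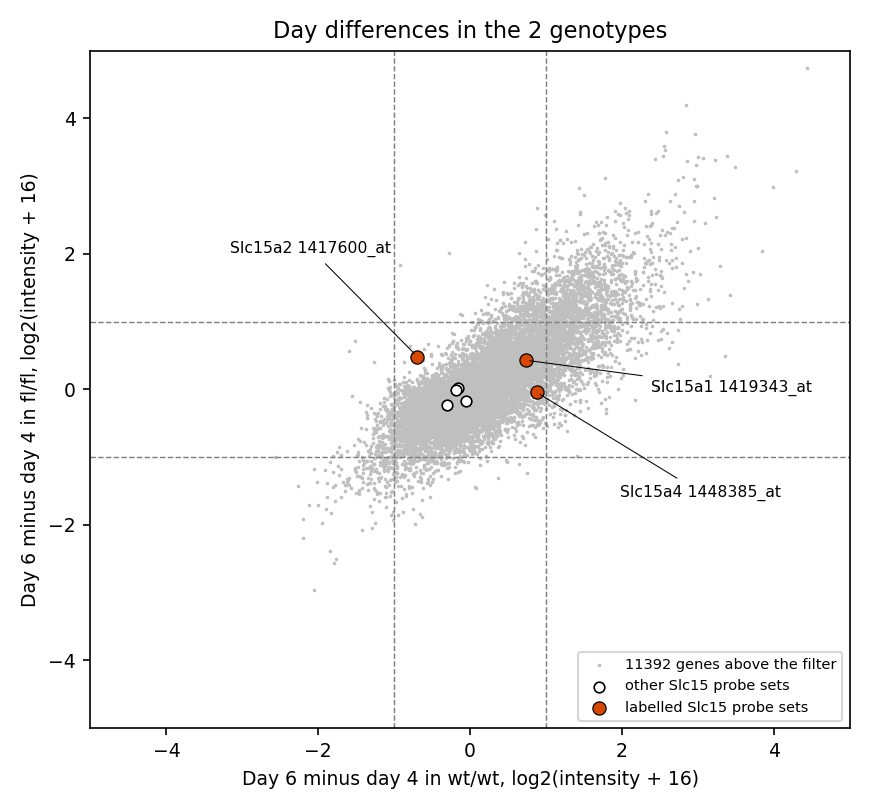
Each grey point is 1 of 11392 genes, placed by its day 6 minus day 4 difference in wt/wt (horizontal) and fl/fl cultures (vertical) on the log2(intensity + 16) scale, with dashed lines at 2-fold. Slc15a2 1417600_at (-0.70, 0.48) is lower at day 6 in wt/wt against higher in fl/fl cultures, Slc15a1 (0.73, 0.43) lies within the rising cloud, and Slc15a4 1448385_at is at 0.88 and -0.04.

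Slc15a4, the endolysosomal histidine and peptide transporter, had 1 probe set that was low on a single array. Probe set 1448385_at read 13.5 in wt/wt against 46.4 in fl/fl cultures at day 4, and 38.2 in wt/wt against 44.5 in fl/fl cultures at day 6. The wt/wt array at day 4 stood below the other 3, which lay within 38.2 to 46.4. The low reading was under the filter level of 16.9, so no intensity ratio is given for day 4; at day 6 the fl/fl intensity was 1.16-fold the wt/wt intensity. On the log2(intensity + 16) scale the genotype differences were 1.08 and 0.16. The day difference was 0.88 in wt/wt against -0.04 in fl/fl cultures, and the genotype difference changed by -0.92 from day 4 to day 6.

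The day 4 call for Slc15a4 was close to the line. Of 7 alternatives 4 kept it, at 1.13 with arrays centred on their medians, 1.15 when scaled to hybridization controls, 1.22 after quantile normalization and 1.70 with a pseudocount of 1. The other 3 did not: centring each array on the genes above the filter gave 0.87, a pseudocount of 64 gave 0.51, and the mean of its 2 probe sets gave 0.46. At day 4, 157 genes were 2-fold higher in fl/fl cultures, 12 were lower, and the median of all genes was 0.15. After centring the counts were 44 and 47. The other Slc15a4 probe set, 1441925_at, read 7.25, 4.82, 4.35 and 4.67 in wt/wt and fl/fl cultures at day 4 and then at day 6, all below the filter. There the wt/wt array at day 4 was the highest of the 4, not the lowest.

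Slc15a3, the other endolysosomal transporter and a gene of macrophages and dendritic cells, was below the filter on every array. Probe set 1420697_at read 8.42 in wt/wt against 6.76 in fl/fl cultures at day 4, and 5.79 and 7.02 at day 6, with genotype differences of -0.10 and 0.08. Such readings set no level, and no difference was detectable. Slc15a5, a further family member outside the group described here, was also below the filter on every array, between 3.65 and 5.75.

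Markers of the cells in which Slc15a2 and Slc15a3 are otherwise known were measured on the same arrays. Of 12 macrophage and dendritic cell markers, 3 were above the filter: Csf1r, Cd14 and Lyz2, the last of which Paneth cells and other epithelium also express. Ptprc read at most 6.77 and Tyrobp at most 8.69, and no marker was at 0. The summed intensity of the list, most of it Lyz2, was 2101 and 3055 at day 4 in wt/wt and fl/fl cultures and 1700.5 and 1336 at day 6.

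Enteric glia and neuron markers had summed intensities of 138 and 110 in wt/wt and fl/fl cultures at day 4 and 94.6 and 97.2 at day 6, with S100b and Sox10 the 2 of 7 above the filter. Their sum was lower in fl/fl cultures at day 4 and 1.03-fold the wt/wt sum at day 6, where Slc15a2 1417600_at was at 7.70-fold the wt/wt intensity. The part of any of these cells in the Slc15a2 difference was not tested. Fibroblast and muscle markers summed to 219 and 183 at day 4 and 124 and 135 at day 6, with 3 of 10 above the filter. All 6 endothelial markers were below it.

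The other genes of the peptide absorption route showed no common genotype difference. None of the 9 brush border peptidases above the filter was 2-fold different between genotypes on either day, with medians of -0.22 and 0.04 against 0.15 and 0.05 over all genes. The 9 genes of proton and sodium transport that energise uptake had medians of 0.20 and 0.17 with none 2-fold. Among them was Slc9a3, the brush border sodium/proton exchanger NHE3 that works with Slc15a1. By the brighter of its 2 probe sets it read 28.4 and 11.0 at day 4 and 25.7 and 21.4 at day 6. The genotype differences were -0.72 and -0.16, the first resting on a fl/fl reading below the filter level of 16.9.

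Past uptake, cytosolic peptidases split the absorbed peptides and basolateral carriers pass the amino acids on. All 10 cytosolic peptidases were above the filter, with genotype medians of 0.23 and 0.11 and none 2-fold; the leucine aminopeptidase Lap3 came closest, at 0.00 and 0.95. Of 8 basolateral exporters above the filter, 1 was 2-fold higher in fl/fl cultures at day 4, where 1.38% of all genes were. This was the heavy chain Slc3a2, picked out after its value was seen, at 1.20 with intensities of 41.7 and 117, and at -0.03 at day 6. Its day 4 call was also close to the line. Centring each array on the genes above the filter lowers every day 4 difference alike (Slc15a4 1448385_at from 1.08 to 0.87) and takes Slc3a2 just below 2-fold. Like Slc15a4 1448385_at, Slc3a2 was low on the wt/wt array at day 4 and read 154 and 150 at day 6. The list's medians were 0.52 and 0.07.

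Between the days, 9.37% of all genes were 2-fold higher at day 6 in both genotypes, and of the 9 proton and sodium transport genes 3 were. The sodium pump subunits Atp1b1 and Atp1b3 and the scaffold Pdzk1, which anchors brush border transporters, were higher by 2.01, 1.14 and 1.32 in wt/wt and 1.69, 1.17 and 1.60 in fl/fl cultures. Of the 10 cytosolic peptidases 1 was so called, Lap3 at 1.28 and 2.22, and of the 8 basolateral exporters 0, shares near that of all genes. Of the 8 transcription factors listed as regulators of Slc15a1 that had a probe set, 7 were above the filter, and Nfe2l2, the oxidative stress regulator NRF2, was 2-fold higher at day 6 in both genotypes (1.66 and 1.81). The intestinal homeobox factor Cdx2 differed by 0.43 and 0.30 between the days and the nuclear receptor Hnf4a by 0.35 and 0.39, below 2-fold.

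**Figure D4:**
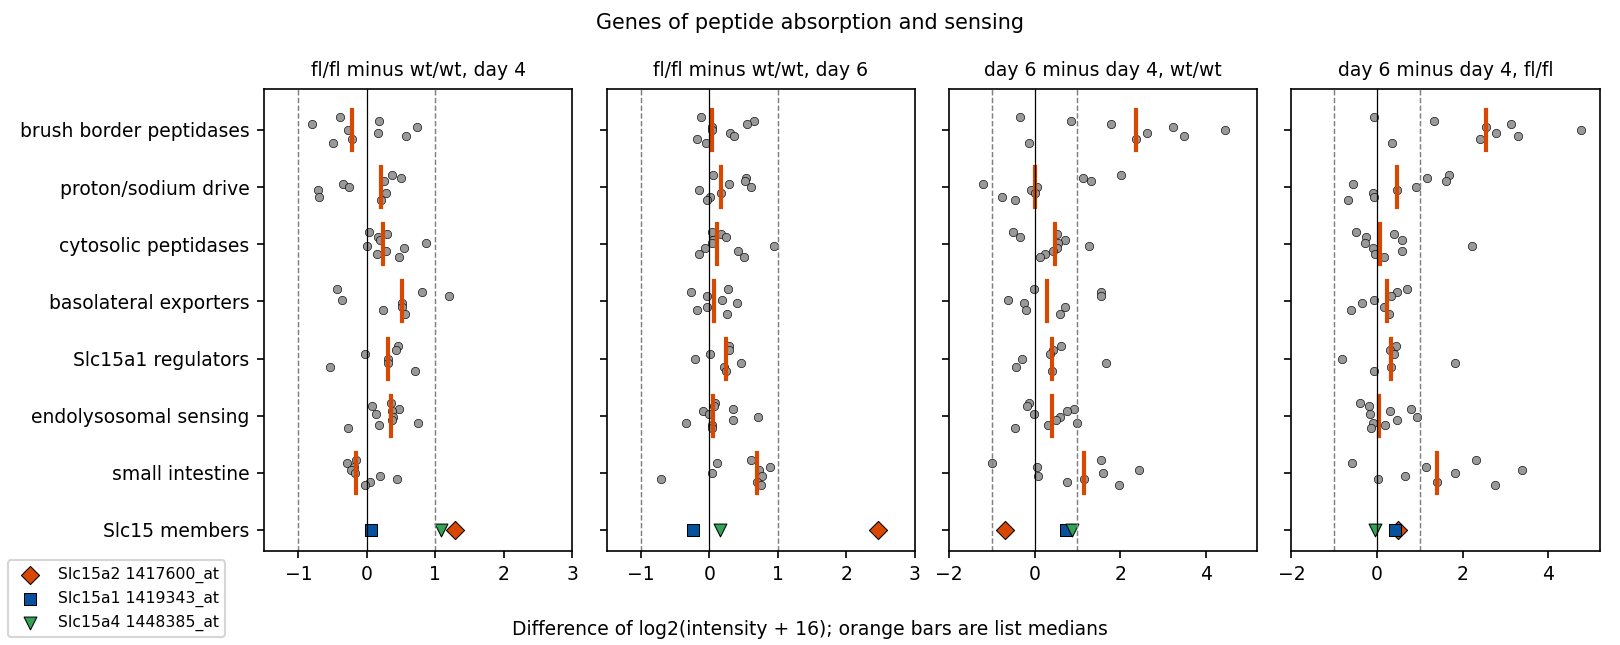
Differences of log2(intensity + 16) in the 4 comparisons for genes above the filter in 7 lists (grey points, 1 per gene, with the list median as an orange bar), and in the lowest line Slc15a2 (diamond), Slc15a1 (square, below the filter) and Slc15a4 (triangle), with dashed lines at 2-fold. Brush border peptidases have medians of 2.37 and 2.54 between the days and -0.22 and 0.04 between genotypes, where Slc15a2 stands at 1.28 and 2.46.

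Regional markers bear on Slc15a1, whose home is the small intestine. The 9 small intestinal markers above the filter had medians of 1.15 in wt/wt against 1.41 in fl/fl cultures between the days, with 4 of them 2-fold higher at day 6 in both, against 9.37% of all genes: the fatty acid binding protein Fabp2 (2.44 and 3.40), the sugar transporter Slc5a1 (1.97 and 2.76), the apolipoprotein Apob (1.54 and 2.31) and the ileal bile acid binding protein Fabp6 (1.61 and 1.83). The iron reductase Cybrd1 went the other way (-1.01 and -0.60), and it was named after its value was seen. The rise was not confined to small intestinal markers. Both colonic markers above the filter were higher at day 6 in wt/wt and fl/fl cultures, Slc26a3 by 1.84 and 1.75 and Muc4 by 1.35 and 0.93. The small intestinal wt/wt median fell below 2-fold in 5 of 10 alternatives, at 0.68 to 0.93. Between genotypes the list's medians were -0.16 at day 4 and 0.70 at day 6, with none 2-fold. Slc15a1, at 0.06 and -0.24, had the opposite sign to that median on each day, although at day 4 it was -0.15 with the arrays centred on the genes above the filter. Its readings were below the filter level on both day 4 arrays and in fl/fl cultures at day 6, so these signs set no contrast with the list.

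The genes that act with Slc15a3 and Slc15a4 in endolysosomes showed no 2-fold difference. Of 13 with a probe set 10 were above the filter, and none reached that size in any of the 4 comparisons; Tlr7, Tlr8 and Tlr9, the nucleic acid receptors whose signalling Slc15a4 serves, were below it. The genotype medians were 0.36 and 0.05 and the day medians 0.41 and 0.04. Nod1, a receptor for fragments of bacterial peptidoglycan, came nearest between genotypes at day 4, with 0.74, and read 24.7 in wt/wt against 52.0 in fl/fl cultures. At day 6 the sign was reversed, at -0.33, with 64.5 in wt/wt against 47.8 in fl/fl cultures. Nod1 was thus lowest on the wt/wt array at day 4, and its day difference in wt/wt cultures was 0.98. Of 5 interferon-stimulated genes above the filter, Oas1a was 2-fold lower at day 6 in both genotypes (-1.13 and -1.20), and 1.35% of all genes were so called.

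The genes next to each transporter on its chromosome were compared over the 5 nearest protein-coding neighbours on either side. Around Slc15a2, 8 of 10 neighbours had a probe set and 2 were above the filter. The ciliary gene Iqcb1 differed between genotypes by 0.12 and 0.15, and the Golgi gene Golgb1 by 0.31 and -0.35. The immediate neighbours Ildr1 and Eaf2 were below the filter, with 8.12, 7.14, 8.53 and 11.0 for Ildr1 and 9.08, 10.3, 7.66 and 8.36 for Eaf2, in the order wt/wt and fl/fl at day 4, then at day 6. No measured neighbour of any member above the filter was 2-fold different between genotypes on either day. Between the days, 2 of 7 around Slc15a1 were 2-fold higher in wt/wt cultures, Mbnl2 (2.39) and Farp1 (1.04), against 18.3% of all genes. Around Slc15a3, 1 of 4, Vps37c, was lower in both genotypes (-1.07 and -1.08), against 1.35% of all genes.

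The genes whose 4 values most resembled those of a transporter were found by the distance between mean-centred log2(intensity + 16) values over the 4 arrays. Nearest to Slc15a2 1417600_at were Rps4l, a ribosomal protein gene (distance 1.04), the RNA-binding protein gene Zmat3 (1.20), the aspartic protease gene Ctse (1.23), and the enteroendocrine genes Gcg (1.24) and Chgb (1.24), against a median of 2.02 over 11391 genes. The highest day 6 genotype difference among these 5 was 1.55, for Ctse, against 2.46 for Slc15a2; Rps4l differed between genotypes by 0.43 and 1.30 and read 13.2, 23.5, 7.34 and 41.4. Nearest to Slc15a1 were Chtop, Klhl24, Setd2, Ddx46 and Tmem199, at 0.04 to 0.05 against a median of 0.78. With 4 arrays and 1 probe set a gene, such likeness is a description only.

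Across the alternative settings the Slc15a2 genotype difference kept its sign on both days. At day 4 it ran from 0.38 to 1.56 and at day 6 from 0.76 to 2.92, the lowest on each day being the mean of its probe sets. Besides that setting, a pseudocount of 64 took it below 2-fold at day 4 (0.92). The 2 dim Slc15a2 probe sets stayed within -0.36 and 0.15 in every setting on both days.

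**Figure D5:**
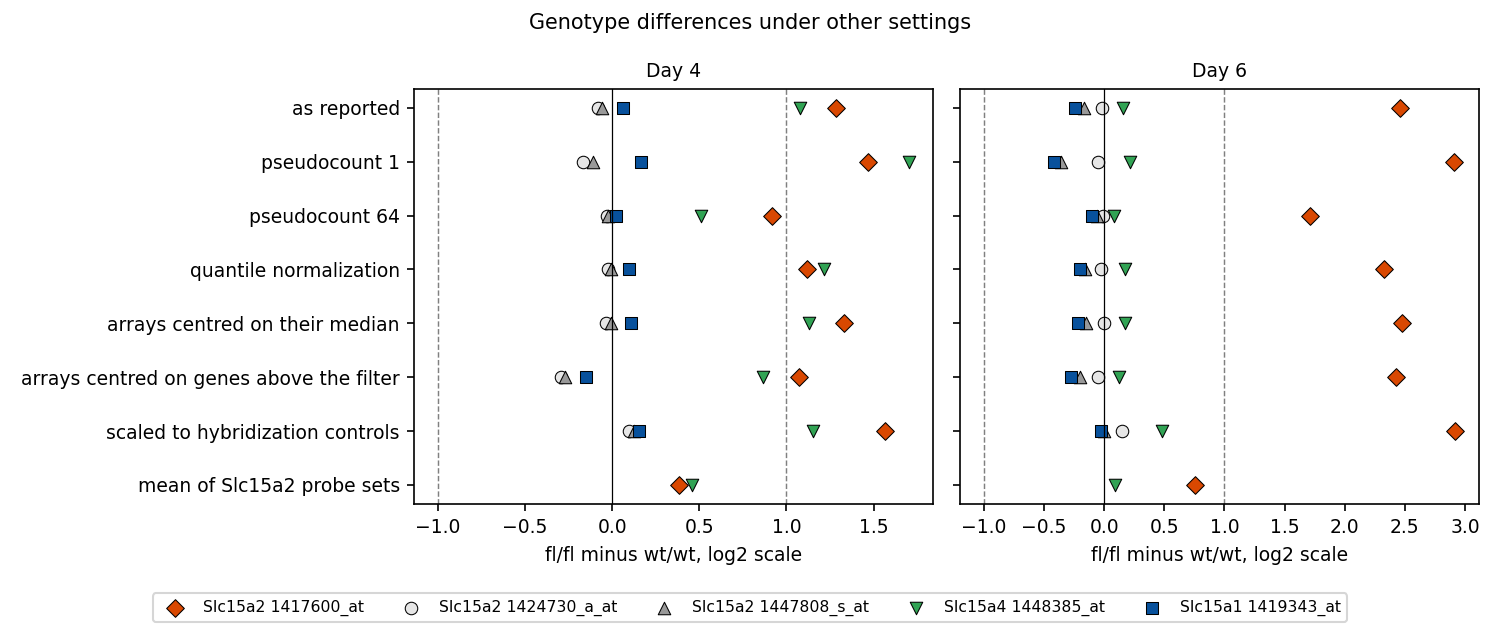
Genotype differences (fl/fl minus wt/wt, log2 scale) at day 4 and day 6 under each setting for the 3 Slc15a2 probe sets, Slc15a4 1448385_at and Slc15a1, with dashed lines at 2-fold. The lowest line, labelled for Slc15a2, holds the mean of the Slc15a2 probe sets and, as the Slc15a4 marker, the mean of the Slc15a4 probe sets. Slc15a2 1417600_at lies at 0.92 to 1.56 at day 4 and right of 1 at day 6 in every setting with its own values, and the other Slc15a2 probe sets lie near 0.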

How the data were processed

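Total RNA of 4 mouse intestinal organoid cultures was labelled as biotinylated cRNA from 100 ng with a 3' in vitro transcription kit, per the labels' protocols, and hybridised to 1 Affymetrix array each. The deposited table holds linear intensities of 45101 probe sets on each array, as their range shows; how the authors summarised, background-corrected and normalized them is not given in the sources used here. Intensities were analysed as log2(intensity + 16) without further normalization. Groups were taken from the titles. Of the probe sets, 34958 have 1 symbol in the platform gene table, 932 have several and 9211 are not listed; symbols were updated through Entrez IDs with a RefSeq table (GRCm38.p6), which matched 34754. The probe set with the highest mean stood for each gene, which gave 18193 genes, of which 11392 passed the filter, a mean at or above the median probe set (log2 5.04, intensity 16.9).

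With 1 array per group no test was made, and 2-fold (1 on the log2 scale) was the call. The members and gene lists were chosen with earlier results of these data known. Named genes were every Slc15 probe set, Tacc3 and Apc, up to 4 members per list that were 2-fold in both comparisons of a pair, the 5 genes nearest in pattern to Slc15a2 and Slc15a1, and 2-fold neighbours of members; Slc9a3, Slc3a2, Nod1, Cdx2, Hnf4a, Cybrd1, other marker genes and the neighbours of Slc15a2 fall outside this rule and were named after their values were seen. Promoter windows came from RefSeq sequence (GRCm38.p6). Alternatives were pseudocounts of 1 and 64, quantile normalization, centring, scaling to hybridization controls, other filters, the mean of probe sets and leaving out x_at and s_at probe sets. Calling was tested on simulated data. Computation used Python 3.11.15, pandas 2.3.3 and numpy 2.4.6.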

Additional observations from a re-analysis of the deposited data

Results flagged for a closer look

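Several Slc15 probe sets differed in opposite directions between groups under the same contrast. With 1 array per group none of these differences was tested.

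Slc15a2 1417600_at was lower at day 6 in wt/wt (-0.70) and higher in fl/fl cultures (0.48), which is a shift of 1.18 between the genotypes on the log2(intensity + 16) scale. Slc15a4 1448385_at differed by 0.88 between the days in wt/wt and by -0.04 in fl/fl cultures, a shift of -0.92 that rests on the low reading of the wt/wt array at day 4 (13.5).

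The other reversals were small and came from probe sets below the filter. Slc15a1 differed between genotypes by 0.06 at day 4 and -0.24 at day 6, a shift of -0.30. Slc15a3 differed between genotypes by -0.10 and 0.08 and between the days by -0.16 and 0.02, each a shift of 0.18. Slc15a4 1441925_at differed between genotypes by -0.16 and 0.02, also a shift of 0.18.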

How the results depend on the processing

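Over all Slc15 probe sets and alternatives, 204 of the differences stayed on their side of 2-fold, 8 moved past it and 8 fell short of it; no 2-fold difference changed sign. Slc15a2 fell short with the mean of its probe sets (0.38 at day 4, 0.76 at day 6, and 0.38 for the shift between the days) and with a pseudocount of 64 (0.92 at day 4 and 0.79 for the shift between the days). It passed 2-fold between the days in fl/fl cultures when scaled to hybridization controls (1.45) and in wt/wt cultures when centred on the genes above the filter (-1.08), a setting chosen after seeing the data. Slc15a1 passed it between the days in wt/wt cultures with a pseudocount of 1 (1.52) and when scaled to hybridization controls (1.13). Slc15a4 1448385_at passed it between the days in wt/wt cultures with a pseudocount of 1 (1.43) and when scaled to hybridization controls (1.41), and for the shift between the days with a pseudocount of 1 (-1.49) and after quantile normalization (-1.04). Its day 4 genotype difference fell short with a pseudocount of 64 (0.51), when centred on the genes above the filter (0.87) and with the mean of its probe sets (0.46). Scaling to those controls moved the median of all genes to 0.47 and 0.37 between genotypes and to 1.004 and 0.84 between the days in wt/wt and fl/fl cultures. The cause of these moves was not tested. No paired analysis was possible because each group holds 1 array and the labels give no replicate numbers; a fit of genotype and day as additive terms was not run, since it would take the days as replicates.

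Counts of genes 2-fold higher and lower in fl/fl cultures were 157 and 12 at day 4 and 24 and 65 at day 6, and between the days 2082 and 338 in wt/wt and 1394 and 330 in fl/fl cultures. Between genotypes they became 436 and 87, then 55 and 106, with a pseudocount of 1, and 24 and 3, then 10 and 27, with 64. Scaling to hybridization controls gave 778 and 1, then 280 and 12, and the mean of probe sets gave 69 and 6 at day 4 and 24 lower at day 6. At day 4, quantile normalization gave 40 lower and centring on the genes above the filter 44 and 47. Between the days, a pseudocount of 1 gave 857 lower in wt/wt and 535 in fl/fl cultures, and 64 gave 1081 and 120 in wt/wt and 712 and 144 in fl/fl cultures. Quantile normalization gave 1184 and 1107, then 928 and 674, and scaling to hybridization controls 5759 and 12, then 4877 and 12. Centring on the genes above the filter gave 1048 and 1348 in wt/wt and 677 lower in fl/fl cultures, and the mean of probe sets 1211 and 88, then 836 and 91. Centring on array medians, other filters and leaving out x_at and s_at probe sets kept all 8 counts within 1.5 times. Of the list medians, 12 passed 2-fold and 5 fell short, 11 of the former when scaled to hybridization controls; all 5 that fell short are the small intestinal markers in wt/wt cultures between the days, with a pseudocount of 64 (0.69), quantile normalization (0.93), centring on the genes above the filter (0.77), no filter (0.75) and the mean of probe sets (0.68). Signal over background limits Slc15a1, Slc15a3 and the dim probe sets of Slc15a2 and Slc15a4, whose levels are not known from these arrays.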
